A study of Mus musculus with 4 samples.

Results

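T and NK cells were found among cells that had been sorted to be alveolar epithelial type 2 (AT2) cells, the surfactant-making cells of the lung alveolus. They were chosen by their transcripts: at least 500 genes, at most 20% mitochondrial (mt-) unique molecular identifiers (UMIs, each a single captured transcript), a UMI of at least 2 of the 8 genes Cd3d, Cd3e, Cd3g, Nkg7, Gzma, Cd8a, Il7r and Ccl5, no UMI of the macrophage genes C1qa, C1qb and C1qc, and Sftpc, the AT2 surfactant gene, below 5% of UMIs. Of 10756 cells that passed the filter on genes and mitochondrial UMIs, 102 met this rule and are called members here.

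The 4 groups were 12-month-old mice on day 30 after bleomycin, 12-month-old mice given PBS (labelled day 0), 3-month-old mice on day 30 after bleomycin, and 3-month-old mice given PBS (labelled day 0). All mice were Sftpc-creER;Rosa26-mTmG animals that had received 4 doses of tamoxifen, so that Cre driven by Sftpc turned on green fluorescent protein (GFP) in AT2 cells and their descendants. Bleomycin, a drug that injures the alveolus, went into the trachea at 0.8 U/kg 14 days after tamoxifen, and the PBS mice received vehicle by the same route. Each group was 1 library of the 10x Genomics 3′ assay made from lungs of 3 pooled mice, sorted for GFP and against the leukocyte protein CD45 and the endothelial protein CD31. With 1 library a group there is no replicate and no test: every interval below covers counting error within a library only, and age, treatment and day cannot be told apart from the library and its sort.

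T cells carry the T cell receptor, which signals through the CD3 chains and the kinases Lck and Zap70, and they divide into CD4 helper and regulatory cells and CD8 killer cells. Natural killer (NK) cells share the granzymes and chemokines of CD8 cells but lack CD3 and carry receptors such as Ncr1 and the Klr family. In the lung, many T cells stay in the tissue and express Cxcr6, Itgae and Cd69, while recirculating cells express Ccr7 and Klf2.

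Members made up 2.31% of the 12-month bleomycin library (69 of 2993 cells, exact 95% binomial interval 1.80 to 2.91), 0.583% of 12-month PBS (16 of 2745, 0.333 to 0.945) and 0.648% of 3-month bleomycin (17 of 2624, 0.378 to 1.04). The 3-month PBS library held 0 of 2394, which allows a share of up to 0.154%, and no cell of it had UMIs of 2 rule genes. The interval of the 12-month bleomycin library lay above the other intervals, while those of 12-month PBS and 3-month bleomycin overlapped. The gap was smaller without cells that had any of 8 genes of other leukocytes. The shares were then 1.2% (36 of 2993) in 12-month bleomycin, 0.546% (15 of 2745) in 12-month PBS and 0.61% (16 of 2624) in 3-month bleomycin. Intervals were not computed for these shares, so the separation is stated for the main rule only.

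The lowest UMI total of a barcode in each library bears on these shares. It was 3018 in 12-month bleomycin, 1041 in 12-month PBS, 2324 in 3-month bleomycin and 939 in 3-month PBS, and many bleomycin members lay close above it: 22 of 69 (31.9%) and 10 of 17 (58.8%) members at 12 and 3 months were less than 25% above the lowest total, against 3.47% and 3.81% of all cells of those libraries. None of the 16 members of 12-month PBS was. With the floor of 3018 UMIs applied to all libraries, a choice made after seeing the data, members were 2.31% (69 of 2993) in 12-month bleomycin. They were then 0.248% (6 of 2421, 0.091 to 0.539) in 12-month PBS, 0.199% (5 of 2507, 0.0648 to 0.465) in 3-month bleomycin and 0 of 1999 in 3-month PBS (up to 0.184%). A cell with less RNA than its library's lowest total is missing from these files, so fewer T cells and T cells with less RNA cannot be told apart. Member UMIs ran from 3041 to 32152 (median 4654) in 12-month bleomycin, from 1316 to 25603 (median 2410.5) in 12-month PBS and from 2359 to 8106 (median 2836) in 3-month bleomycin.

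**Figure D1:**
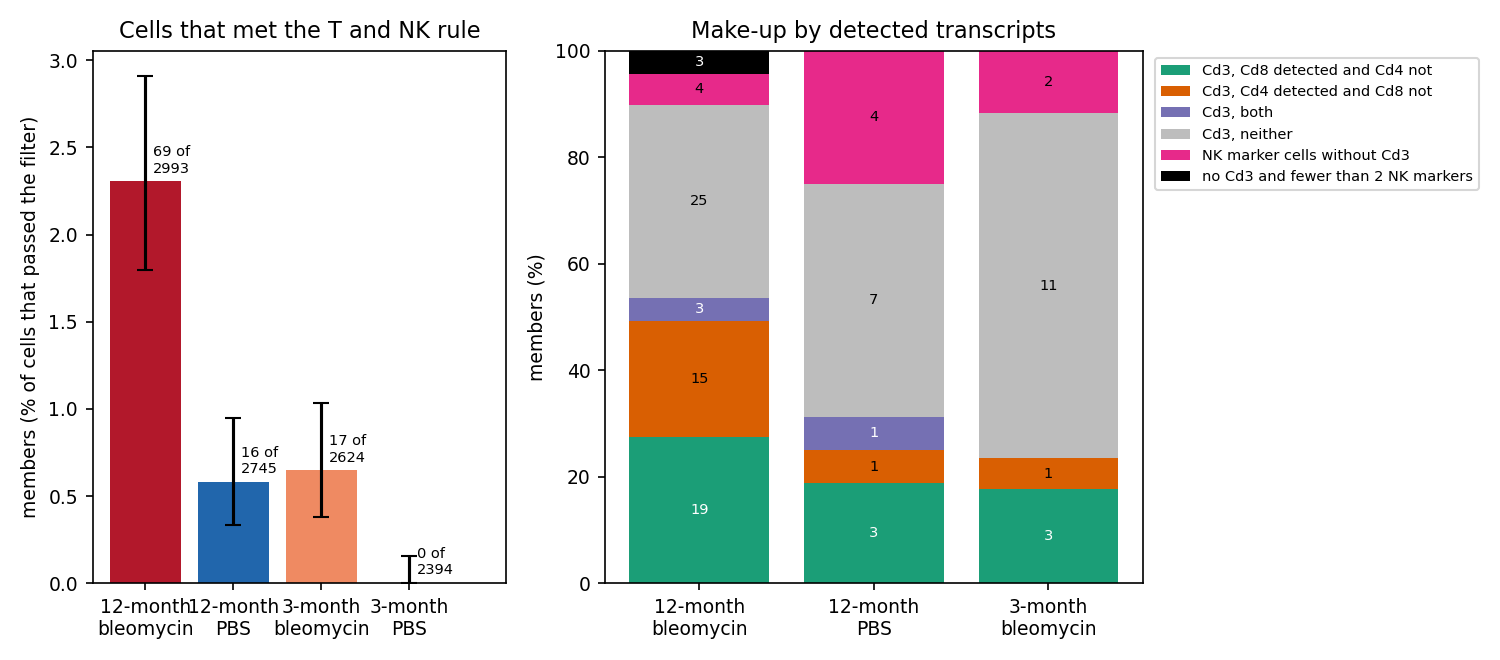
Left, members as a percentage of cells that passed the filter in each library, with exact 95% binomial intervals (counting error only). Right, members of each library split by detected transcripts, with the number of cells in each part. The 69 members of 12-month bleomycin stood at 2.31%, and most members of all 3 libraries had a Cd3 UMI.

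The bars on C1q and Sftpc removed most candidates in 12-month bleomycin. There 345 cells had UMIs of at least 2 rule genes, of which 177 were barred by a C1q UMI and 99 by Sftpc, and the cells barred by Sftpc held a median of 2 rule UMIs and 16.0% Sftpc. In 12-month PBS and 3-month bleomycin, 19 and 21 cells had 2 rule genes, of which 1 and 3 were barred by C1q and 2 and 1 by Sftpc. Sftpc itself gave 0.596% to 4.84% of UMIs in members of 12-month bleomycin (median 1.05%), 0.608% to 1.33% in 12-month PBS (1.02%) and 0.941% to 1.56% in 3-month bleomycin (1.27%). Just outside the 2-gene bound stood 63, 8 and 11 cells with 1 rule gene and otherwise the same values, with a median of 1 rule UMI in each library, against 16, 2 and 2 members with exactly 2 rule genes. No member barcode occurred in another library, although library pairs shared 7 to 20 barcodes over all cells.

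The CD3 chains define the T cells, and most members had them. A UMI of Cd3d, Cd3e or Cd3g was found in 62 of 69 members (89.9%) of 12-month bleomycin, 12 of 16 (75%) of 12-month PBS and 15 of 17 (88.2%) of 3-month bleomycin. Cells of the AT2 kind (Sftpc at 5% of UMIs or more) served as the background, and 10.2%, 0.389% and 1.04% of them had a Cd3 UMI in the same 3 libraries, at median depths of 12520, 5138 and 8552 UMIs. With each cell thinned to 1750 UMIs, the expected shares were 76.1%, 67.8% and 87.7% of members, against 1.8%, 0.15% and 0.25% of AT2-kind cells, with 3 shallower members of 12-month PBS left out. Thus the Cd3 share of members stood far above that of AT2-kind cells in each library, although the rule itself used these genes and the gap is a description.

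The 3 CD3 genes lie together on chromosome 9. All 3 were detected in 45, 7 and 13 members of 12-month bleomycin, 12-month PBS and 3-month bleomycin, a count that the rule favours, since it asks for 2 rule genes and these are 3 of the 8. Cd3g had a median of 3, 3 and 4 UMIs per member in those libraries and at most 21, 8 and 11. Since these genes mark the T cells and Gzma marks the split within the killer-type members described further on, the 250 bases before their starts are shown (RefSeq, build GRCm38.p6, 5′ to 3′ on the gene's strand), with matches to CAGGAAG (an ETS-factor word) and TGTGGT (a RUNX-factor word) on either strand in capitals. The 4 windows are chr9:44981536-44981785 on the plus strand (Cd3d), chr9:45009612-45009861 on the minus strand (Cd3e), chr9:44980432-44980681 on the minus strand (Cd3g) and chr13:113100982-113101231 on the minus strand (Gzma).
Cd3d: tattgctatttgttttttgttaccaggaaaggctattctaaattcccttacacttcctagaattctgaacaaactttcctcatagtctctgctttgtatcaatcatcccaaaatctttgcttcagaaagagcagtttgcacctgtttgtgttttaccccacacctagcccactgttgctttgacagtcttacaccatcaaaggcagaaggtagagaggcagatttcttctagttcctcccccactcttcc
Cd3e: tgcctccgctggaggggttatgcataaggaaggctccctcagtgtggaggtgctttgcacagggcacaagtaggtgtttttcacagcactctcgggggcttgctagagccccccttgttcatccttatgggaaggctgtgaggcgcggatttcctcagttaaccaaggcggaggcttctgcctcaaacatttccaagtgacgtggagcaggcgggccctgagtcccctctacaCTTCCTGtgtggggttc
Cd3g: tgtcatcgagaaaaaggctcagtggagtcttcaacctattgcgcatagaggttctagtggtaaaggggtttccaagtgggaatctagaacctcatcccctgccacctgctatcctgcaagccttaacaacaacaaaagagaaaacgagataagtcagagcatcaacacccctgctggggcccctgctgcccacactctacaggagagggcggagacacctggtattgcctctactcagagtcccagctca
Gzma: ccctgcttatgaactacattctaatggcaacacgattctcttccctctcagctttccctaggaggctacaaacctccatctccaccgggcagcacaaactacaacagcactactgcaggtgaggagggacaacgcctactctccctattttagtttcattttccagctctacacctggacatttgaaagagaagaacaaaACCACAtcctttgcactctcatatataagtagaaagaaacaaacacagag
The Cd3e window held the ETS word at -17, the Gzma window the RUNX word at -50, and the Cd3d and Cd3g windows neither. Across 32851 promoter windows of this length, 10.8% hold the ETS word and 14% the RUNX word. TATAAA (12.4% of windows) and an NF-kB word with 4 free bases (17.6%) were searched on both strands as well and were in none of the 4. A match describes letters, not binding.

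Genes outside the rule set the members apart from AT2-kind cells. Levels 2-fold or more higher were found for 34.2% of 3671 genes (1256), a contrast in which the members were chosen by their transcripts and from which no more is read. Leading the list were Cd247, the CD3 zeta chain (170 counts per 1000000 UMIs summed over members, CPM, against 0.221 CPM in AT2-kind cells), Il2rb, an interleukin-2 and interleukin-15 receptor chain (111 against 0.182 CPM), Cxcr6, a receptor of tissue-resident T cells (224 against 0.429 CPM), and the T cell adaptor Skap1 (165 against 0.377 CPM). Icos and Cd28, both costimulatory receptors, were at 126 and 204 CPM, and the signalling kinases Lck and Zap70 at 332 and 103 CPM, each under 1.3 CPM in AT2-kind cells. Lck was detected in 69.6% of members, the CD45-associated Ptprcap in 75.5% and the cytoskeletal gene Coro1a in 86.3%. The genes of the T cell receptor constant regions were not analysed here.

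By detected transcripts, 19 members of 12-month bleomycin were Cd3 cells with Cd8a or Cd8b1 and no Cd4, against 3 in 12-month PBS and 3 in 3-month bleomycin. Cd3 cells with Cd4 alone numbered 15, 1 and 1 in that order of libraries, those with both 3, 1 and 0, and those with neither coreceptor 25, 7 and 11. Cd4 gave at most 2 UMIs in most cells that had it, and the large neither class is a class of undetected transcripts, not a cell type. No Cd3 UMI and 2 or more NK-lineage genes were found in 4, 4 and 2 members, and 3 members of 12-month bleomycin had neither.

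**Figure D2:**
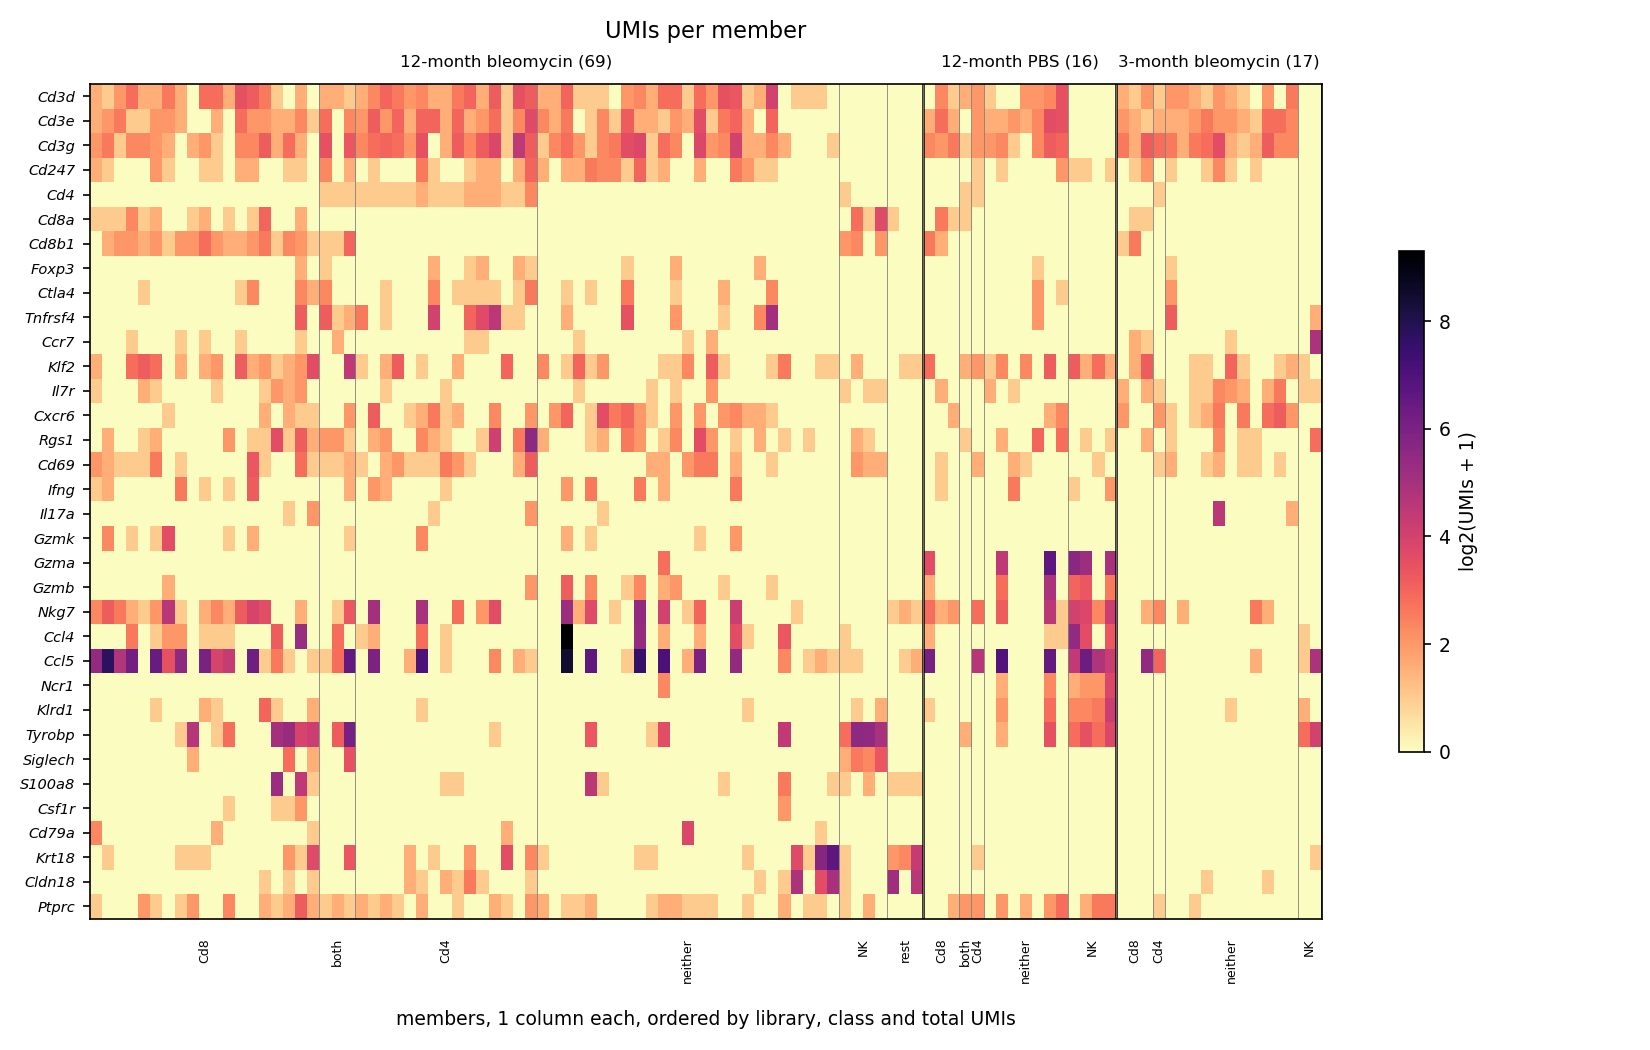
UMIs of 34 genes in each of the 102 members, as log2(UMIs + 1), with members in columns by library and class. Gzma or Ncr1 UMIs were in 7 columns of 12-month PBS, Gzmk appeared in 12-month bleomycin columns alone, and the columns of the NK and rest classes of 12-month bleomycin carried Siglech or Krt18.

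Cytotoxic genes split by library. Gzma, the gene of granzyme A, a protease of killer-cell granules, was found in 1 of 69 members of 12-month bleomycin, with 6 UMIs, in 6 of 16 of 12-month PBS, with 102, 48, 36, 30, 21 and 11 UMIs, and in 0 of 17 of 3-month bleomycin. All 7 of these cells also had Gzmb, the gene of granzyme B. The 12-month PBS cells with 48, 36, 21 and 11 Gzma UMIs had 2267, 2743, 1737 and 1440 UMIs in total. These totals lie under 3018, the lowest of a barcode in 12-month bleomycin, so such cells could not appear in that library. Summed over members, Gzma stood at 12.4 CPM in 12-month bleomycin, against 3439 CPM in 12-month PBS (log2 ratio -8.00, interval -9.57 to -6.97). Gzma is a rule gene and its level is given as a description, although each of the 7 Gzma cells had at least 2 other rule genes. In AT2-kind cells, 0.204%, 0.739% and 0.435% had a Gzma UMI in 12-month bleomycin, 12-month PBS and 3-month bleomycin.

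NK receptors, which the rule did not use, were found mostly in the same cells in 12-month PBS. Ncr1, an activating receptor of NK cells, was found in 1, 6 and 0 members of 12-month bleomycin, 12-month PBS and 3-month bleomycin, and 5 of the 6 in 12-month PBS also had Gzma. Klrd1, the CD94 chain, was found in 10, 7 and 2 members, with at most 7, 17 and 2 UMIs. All 6 Gzma cells of 12-month PBS had Klrd1, whereas the 1 Gzma cell of 12-month bleomycin had Ncr1 and no Klrd1, so the Klrd1 cells of both bleomycin libraries were other cells. At least 5 of 13 NK-lineage genes were present in 1 of 69, 6 of 16 and 0 of 17 members, or 1.45% (0.0367 to 7.81), 37.5% (15.2 to 64.6) and 0% (up to 19.5). The intervals of 12-month bleomycin and 12-month PBS did not overlap, but the shares are not like for like. The 6 Ncr1 cells of 12-month PBS had 1737, 8420, 2267, 2743, 5311 and 4124 UMIs in total. Those under 3018 UMIs could not appear in 12-month bleomycin, and the common floor was not applied to these shares. In AT2-kind cells, Ncr1 was found in 0.0816% of cells of 12-month bleomycin and 0.117% of 12-month PBS. Of the 6 Ncr1 cells of 12-month PBS, 2 had a Cd3 UMI.

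Among genes with 20 or more UMIs over the members of both libraries, 17.1% of 3392 were higher by 2-fold or more in 12-month bleomycin than in 12-month PBS, and 12.3% were lower by as much. Of 8 genes of the NK list compared, 6 were at least 2-fold lower and 0 higher, with a median log2 ratio of -3.61, beside -0.08 over all genes. Ncr1, Klra4 and Klre1 had 4, 1 and 2 UMIs in 12-month bleomycin, against 27, 28 and 23 in 12-month PBS. They passed the bound of 20 UMIs through 12-month PBS alone, so the count and the median are a description. In 12-month PBS 1 cell held 48.1%, 53.6% and 30.4% of these UMIs. The common floor on UMIs was not applied to these ratios. The 10 lowest ratios among genes at 100 CPM or more held 6 killer-cell genes besides Gzma: Ncr1 (8.27 CPM in 12-month bleomycin, against 374 CPM in 12-month PBS), Klra4 (2.07 against 388 CPM), Klre1 (4.14 against 319 CPM), Klrd1 (39.3 against 555 CPM), Klrk1 (16.6 against 180 CPM) and Gzmb (60.0 against 790 CPM). The T and NK membrane gene Ms4a4b was at 16.6 CPM in 8 members of 12-month bleomycin, against 499 CPM in 8 members of 12-month PBS. Hist1h2ap, a histone gene of dividing cells, also appeared, but 90.5% and 95.9% of its UMIs came from 1 cell in each library.

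Gzmk, the gene of granzyme K, another granule protease, was detected in 12-month bleomycin members alone. It was found in 12 members of 12-month bleomycin (17.4%, 9.32 to 28.4) with 1 to 11 UMIs each, in 0 of 16 of 12-month PBS (up to 20.6%) and in 0 of 17 of 3-month bleomycin (up to 19.5%). All 12 were Cd3 cells with Ccl5, none had Gzma, and 6 belonged to the Cd8 class. The upper bounds of the smaller libraries lie above 17.4%, so a lower share in them was not detectable at these numbers of members. A Gzmk UMI was found in 0.735% of AT2-kind cells of 12-month bleomycin, 0% of 12-month PBS and 0% of 3-month bleomycin.

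Ccl5, a chemokine of effector T and NK cells and a rule gene, stood at 3835 CPM in 12-month bleomycin, 6115 CPM in 12-month PBS and 1457 CPM in 3-month bleomycin. It was found in 41, 8 and 5 members, with up to 349, 116 and 43 UMIs, and in the 3-month library 53.1% of its UMIs came from 1 cell. In 12-month bleomycin 30.1% of AT2-kind cells also had a Ccl5 UMI, so a single UMI there is near background. Ccl4, a related chemokine, was at 1601 CPM in 12-month bleomycin, 929 CPM in 12-month PBS and 18.0 CPM in 3-month bleomycin, but 1 cell held 631 of 774 UMIs in 12-month bleomycin. The interferon gamma gene Ifng was found in 15, 4 and 0 members, and the inhibitory receptor gene Lag3 in 12, 0 and 0. As for Gzmk, 0 members allows a share of up to 20.6% in 12-month PBS and 19.5% in 3-month bleomycin. A lower share of Lag3 there was therefore not detectable at these numbers of members.

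**Figure D3:**
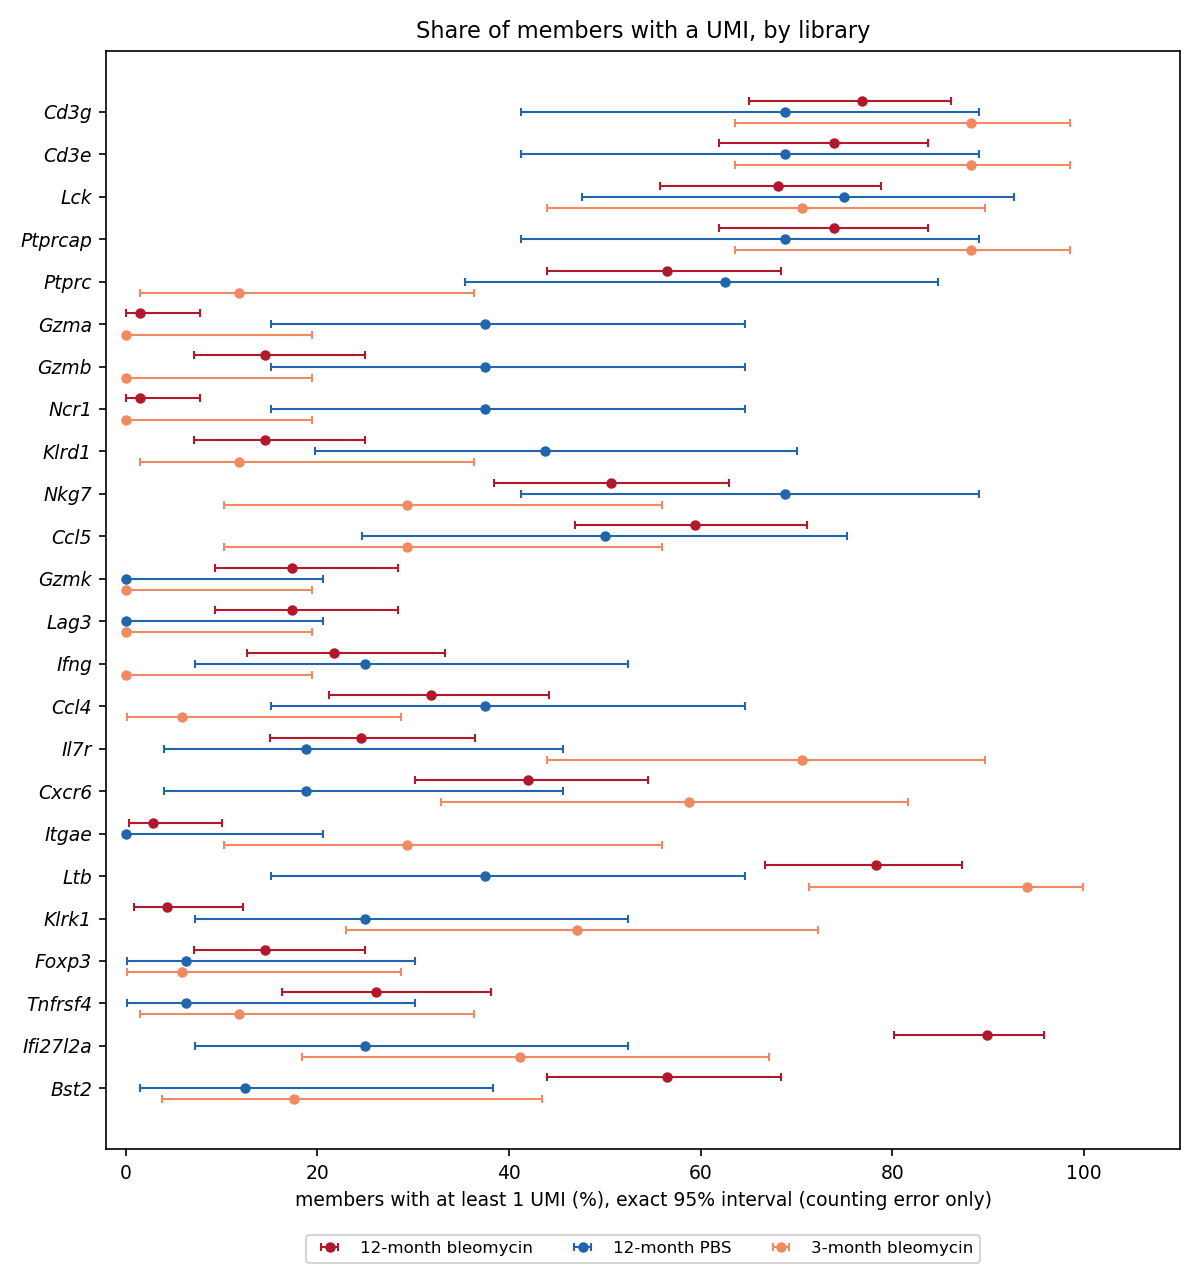
Share of members with at least 1 UMI of 24 genes in 12-month bleomycin (n = 69), 12-month PBS (n = 16) and 3-month bleomycin (n = 17), with exact 95% binomial intervals (counting error only). Ptprc stood at 56.5%, 62.5% and 11.8%, Gzma at 1.45%, 37.5% and 0%, and Il7r at 24.6%, 18.8% and 70.6%.

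Regulatory T cells are marked by the transcription factor Foxp3. It was found in 10 members of 12-month bleomycin (14.5%, 7.17 to 25), 1 of 12-month PBS (6.25%, 0.158 to 30.2) and 1 of 3-month bleomycin (5.88%, 0.149 to 28.7), with 1 or 2 UMIs per cell, and these intervals overlapped. Of the 12 Foxp3 cells, 11 had Tnfrsf4 (OX40, a costimulatory receptor), 11 had the inhibitory receptor Ctla4 and 10 had the transcription factor Ikzf2, and all 12 had Cd3. Tnfrsf4 reached 279 CPM in 12-month bleomycin, against 41.6 CPM in 12-month PBS and 180 CPM in 3-month bleomycin. Of 6 genes of the regulatory list compared, 3 were at least 2-fold higher and 0 lower in 12-month bleomycin than in 12-month PBS (median log2 ratio 0.98, beside -0.08 over all genes), against 17.1% and 12.3% of all genes. The 3 were Tnfrsf4, Tnfrsf18 and Ikzf2, with 3, 5 and 2 UMIs in 12-month PBS. They passed the bound of 20 UMIs through 12-month bleomycin, so this count is a description. Against 3-month bleomycin, 1 of 6 was higher and 1 lower (median 0.54, beside 0.00 over all genes). Over all genes 17.8% were higher and 11.6% lower, so these counts are no result about the list.

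Il7r, Cxcr6, Itgae and Ltb were detected in the largest share of members in 3-month bleomycin. Il7r, the gene of an interleukin-7 receptor chain and a rule gene, was found in 17 of 69 members of 12-month bleomycin (24.6%, 15.1 to 36.5), 3 of 16 of 12-month PBS (18.8%, 4.05 to 45.6) and 12 of 17 of 3-month bleomycin (70.6%, 44 to 89.7). Thinned to 1750 UMIs, the expected shares were 10.9%, 14.6% and 51.9%. Cxcr6 was found in 29, 3 and 10 members of 12-month bleomycin, 12-month PBS and 3-month bleomycin, and Cxcr6 with Il7r in 6, 0 and 8. The integrin chain gene Itgae, which holds T cells in epithelium, was found in 2, 0 and 5 members, and the cytokine gene Ltb, of lymphotoxin beta, in 54, 6 and 16. The residency gene Cd69 was found in 35, 5 and 7 members, so not all residency genes had this order.

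Between the bleomycin libraries, 17.8% of 3301 genes were higher by 2-fold or more in 12-month members than in 3-month members, and 11.6% were lower by as much. Il7r was at 51.7 CPM in 12-month bleomycin, against 450 CPM in 3-month bleomycin (log2 ratio -3.12, -3.98 to -2.26). Cxcr6 was at 190 CPM in 12-month bleomycin, against 666 CPM in 3-month bleomycin (log2 ratio -1.82), and Ltb at 530 against 1547 CPM (-1.55). Klrk1, the gene of the NKG2D receptor, was at 16.6 CPM in 12-month bleomycin, against 198 CPM in 3-month bleomycin (-3.56). Il17a, the interleukin-17A cytokine gene, had 9 UMIs over 5 members of 12-month bleomycin, against 24 UMIs in 3-month bleomycin, of which 22 came from 1 cell. All 7 Il17a cells also had Cxcr6 and Cd3. Among the other lowest ratios, Marcksl1, Cst3 and Ifi30 had 97.1%, 78% and 54.2% of their 3-month bleomycin UMIs in 1 cell. Rrad, Ifi30, Phip and Tnrc6b were at log2 ratios of -2.65, -2.59, -2.51 and -2.45, on 10, 24, 11 and 8 UMIs in 3-month bleomycin. Of the Rrad UMIs there, 40% were in 1 cell. Of 7 lymphoid transcription factor genes compared, 6 were at least 2-fold lower and 0 higher, with Runx3, Gata3, Tcf7, Bcl11b, Ets1 and Id2 at log2 ratios of -2.27, -1.87, -1.14, -1.32, -1.28 and -1.06. All of these levels were taken over members that included cells with transcripts of other types, described further on. In members with 2 or more Cd3 genes and none of 5 genes of other types (the strict T set, defined further on), 3 of 5 such genes were lower by 2-fold or more and 0 higher, beside 6.68% of all genes lower and 13.5% higher.

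Ptprc encodes CD45, the protein against which the cells were sorted. It was found in 39 of 69 members (56.5%, 44 to 68.4) of 12-month bleomycin, 10 of 16 (62.5%, 35.4 to 84.8) of 12-month PBS and 2 of 17 (11.8%, 1.46 to 36.4) of 3-month bleomycin. The interval of 3-month bleomycin lay under that of 12-month bleomycin. Thinned to 1750 UMIs, the expected shares were 27.4%, 55.2% and 7.68%. In AT2-kind cells 3.51%, 0.233% and 0.565% had a Ptprc UMI in the same libraries. In 3-month bleomycin, 9 of 14 cells with 2 or more C1q genes and Sftpc below 5% (64.3%, 35.1 to 87.2) had a Ptprc UMI, at a median of 8443 UMIs a cell, and 16.7% did when thinned.

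Leukocyte genes of higher level were found in most members of each library. Cd52, a glycoprotein gene of lymphocytes, was found in 63 of 69, 16 of 16 and 17 of 17 members, Coro1a in 59, 13 and 16, and the GTPase gene Rac2 in 60, 14 and 16. Over the 14 pan-leukocyte genes, the summed level was 7530 CPM in 12-month bleomycin, 10080 CPM in 12-month PBS and 8580 CPM in 3-month bleomycin. Of these 14, 1 was at least 2-fold higher and 2 were lower in 12-month than in 3-month bleomycin, beside 17.8% and 11.6% of all genes, which is no result about the list. Ptprc was the 1 that was higher, at 143 against 36.0 CPM (log2 ratio 1.68). Cytip, a cytohesin-binding protein gene of the same list, was found in 31, 7 and 4 members. In the strict T set it was found in 16 of 37, 5 of 11 and 2 of 15 cells, close to the counts of Ptprc there (19, 6 and 2). Above the floor of 3018 UMIs, 39 of 69, 5 of 6 and 0 of 5 members had a Ptprc UMI.

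Transcripts of other cell types sat in part of the members, mainly in 12-month bleomycin. At least 3 of 8 pan-epithelial genes (such as the keratin gene Krt18 and the tight-junction gene Cldn18) were found in 20 of 69 members of 12-month bleomycin, 0 of 16 of 12-month PBS and 2 of 17 of 3-month bleomycin. Over 10000 UMIs were found in 13, 1 and 0 members, and 10 of the 13 had at least 3 pan-epithelial genes. The neutrophil gene S100a8 was found in 15, 0 and 0 members, the macrophage receptor gene Csf1r in 5, 0 and 0, and the B cell receptor gene Cd79a in 6, 0 and 0. Scrublet called 1 of these 69 members a doublet and none of the others.

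Siglech, a marker of plasmacytoid dendritic cells, was found in 8 members of 12-month bleomycin, all with Cd8a or Cd8b1. The 4 members of that library with NK-lineage genes and no Cd3 were the 4 Siglech cells without Cd3, and their NK-lineage genes included Tyrobp, which myeloid cells share, so the name NK does not hold for them. In 3-month bleomycin, 1 of the 2 members with NK-lineage genes and no Cd3 had Flt3, Ccl22 and Fscn1, genes of dendritic cells, with 28 Ccr7 UMIs. It gave 87.5% of the Ccr7 and 100% of the Fscn1 UMIs of members in that library. The 4 such members of 12-month PBS all had Ncr1, 3 of them had Gzma, and none had Siglech, S100a8, Csf1r or Cd79a. The label therefore held in part: T cells in all 3 libraries, cells with Ncr1 in 12-month PBS and 1 in 12-month bleomycin, and further cells that carried other types' transcripts.

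**Figure D4:**
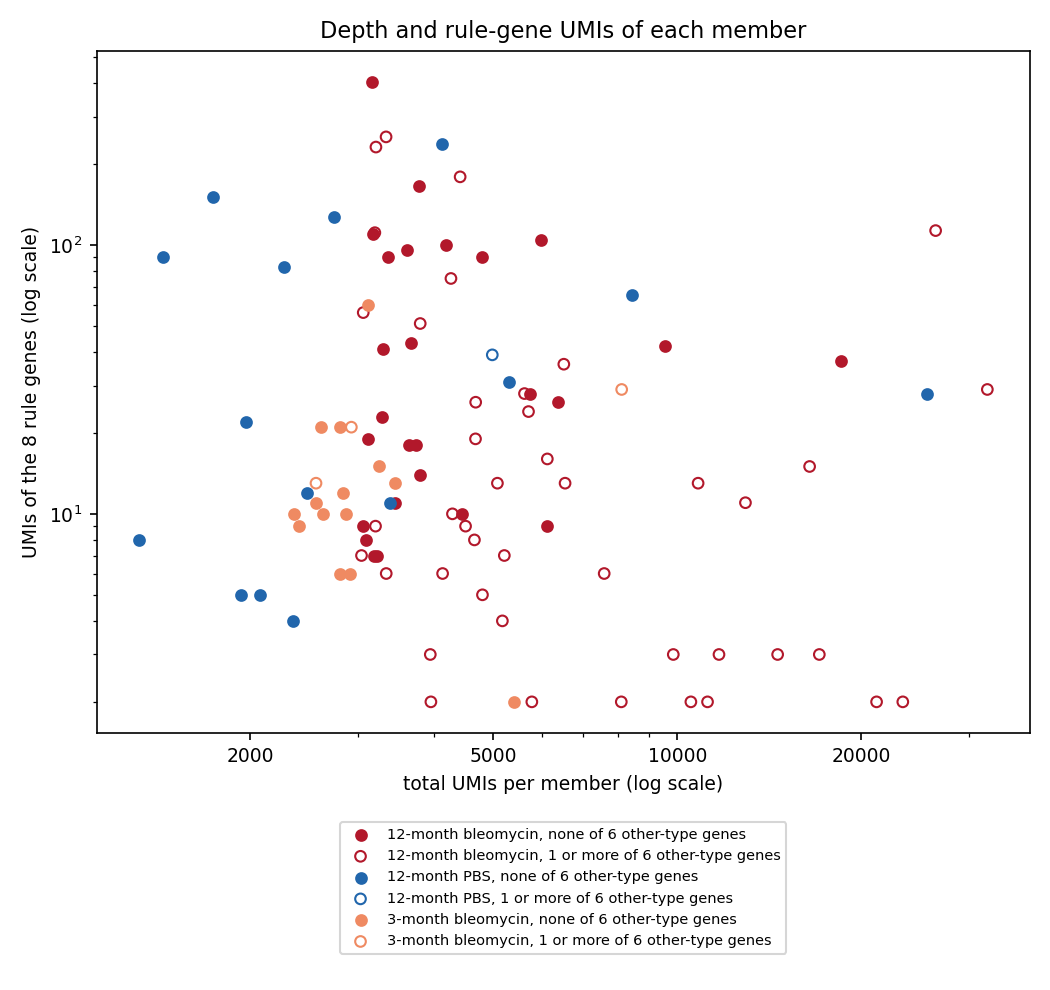
Total UMIs and UMIs of the 8 rule genes in each member, both on log scales, with open circles where 1 or more of Krt18, Cldn18, Siglech, S100a8, Csf1r and Cd79a was detected. Open circles were 43 of 69 members in 12-month bleomycin, 1 of 16 in 12-month PBS and 3 of 17 in 3-month bleomycin, and they included all 12 members of 12-month bleomycin with 3 or fewer rule UMIs.

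Several of the highest ratios rested on few cells. The 10 highest ratios over 12-month PBS were held by Rarres2, Slpi, Igfbp5, Clec3b, Mgp, Scgb3a2, Krt8, Dcn, Serping1 and Krt7, all with 0 UMIs in 12-month PBS. Igfbp5, a growth factor binding protein gene of stromal cells, had 443 UMIs in 4 members of 12-month bleomycin, 76.7% of them in 1 cell, or at least 22-fold more than the 3 counts that 0 UMIs allows in 12-month PBS. Scgb3a2, an airway secretory gene, had 328 UMIs, 90.2% in 1 cell (at least 16.3-fold). Of the 10 highest over 3-month bleomycin, Rarres2, Igfbp5, Clec3b, Mgp and Dcn were the same genes, and Ccl4, Spp1, Plac8, Igfbp6 and Cxcl2 were the others. In members with 2 or more Cd3 genes and no UMI of Siglech, Cd79a, Csf1r, Epcam and S100a8 (the strict T set: 37, 11 and 15 members), a set chosen after seeing the data, Rarres2 and Igfbp5 had 0 UMIs and Slpi 20 in 12-month bleomycin.

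Interferon response genes were higher in members of 12-month bleomycin. Their summed level was 6514 CPM in 12-month bleomycin, against 1622 CPM in 12-month PBS and 2266 CPM in 3-month bleomycin. Ifi27l2a, an interferon-induced gene, was found in 62 of 69 members of 12-month bleomycin (median 6 UMIs), 4 of 16 of 12-month PBS and 7 of 17 of 3-month bleomycin, at 1845, 319 and 324 CPM. Irf7, a transcription factor of the interferon response, was found in 28, 0 and 0 members, and its level was at least 3.98-fold that of 12-month PBS and at least 3.07-fold that of 3-month bleomycin. Bst2, the tetherin gene, was at 672, 55.5 and 72.0 CPM, and Isg15, a ubiquitin-like modifier gene, at 230, 13.9 and 18.0 CPM.

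Of 16 interferon genes compared with 12-month PBS, 13 were at least 2-fold higher and 0 lower (median log2 ratio 2.77). Because 5 of the 16 had 0 UMIs there, the count with these held at 3 UMIs was 11 of 16 (median 1.58), beside 12.6% of all genes under the same rule. Against 3-month bleomycin, 12 of 16 were at least 2-fold higher and 0 lower (median 2.24), and 10 of 16 with genes at 0 held at 3 UMIs (median 1.18), beside 11.4% of all genes. AT2-kind cells had the same direction: their median over the 16 genes was 3.52 against 12-month PBS and 3.10 against 3-month bleomycin. The part of RNA from AT2 cells in the members' interferon levels was not tested.

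In the strict T set the gap was smaller. Of 10 interferon genes compared there, 6 were at least 2-fold higher than in 12-month PBS and 0 lower (median 1.17), beside 10.5% and 8.72% of all 1652 genes. With genes at 0 held at 3 UMIs, 5 were higher (median 0.96), beside 9.99% of all genes. Against 3-month bleomycin, 5 of 9 were at least 2-fold higher and 0 lower (median 1.06), or 4 with genes at 0 held at 3 UMIs (median 0.99), beside 12.2% of 1601 genes. Ifi27l2a was at 2123 CPM in 12-month bleomycin, against 454 CPM in 12-month PBS and 333 CPM in 3-month bleomycin. Zbp1, a nucleic acid sensor gene, was at 141, 41.3 and 0 CPM, and Rtp4, another interferon-induced gene, at 111, 0 and 23.8 CPM. Ifitm3, the gene of an antiviral membrane protein, did not keep its gap to 12-month PBS: 75.7 CPM in 12-month bleomycin, against 124 CPM in 12-month PBS and 23.8 CPM in 3-month bleomycin, beside 993, 83.2 and 162 CPM over all members. Bst2 was at 131, 82.6 and 95.1 CPM in this set, under a 2-fold gap to either library. Irf7 had 13, 0 and 0 UMIs, and its interval in 12-month bleomycin (34.9 to 112 CPM) overlapped what 0 UMIs allows in 12-month PBS (up to 76.2 CPM) and 3-month bleomycin (up to 87.7 CPM). Ly6e, at 1135, 723 and 1758 CPM, was highest in 3-month bleomycin.

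**Figure D5:**
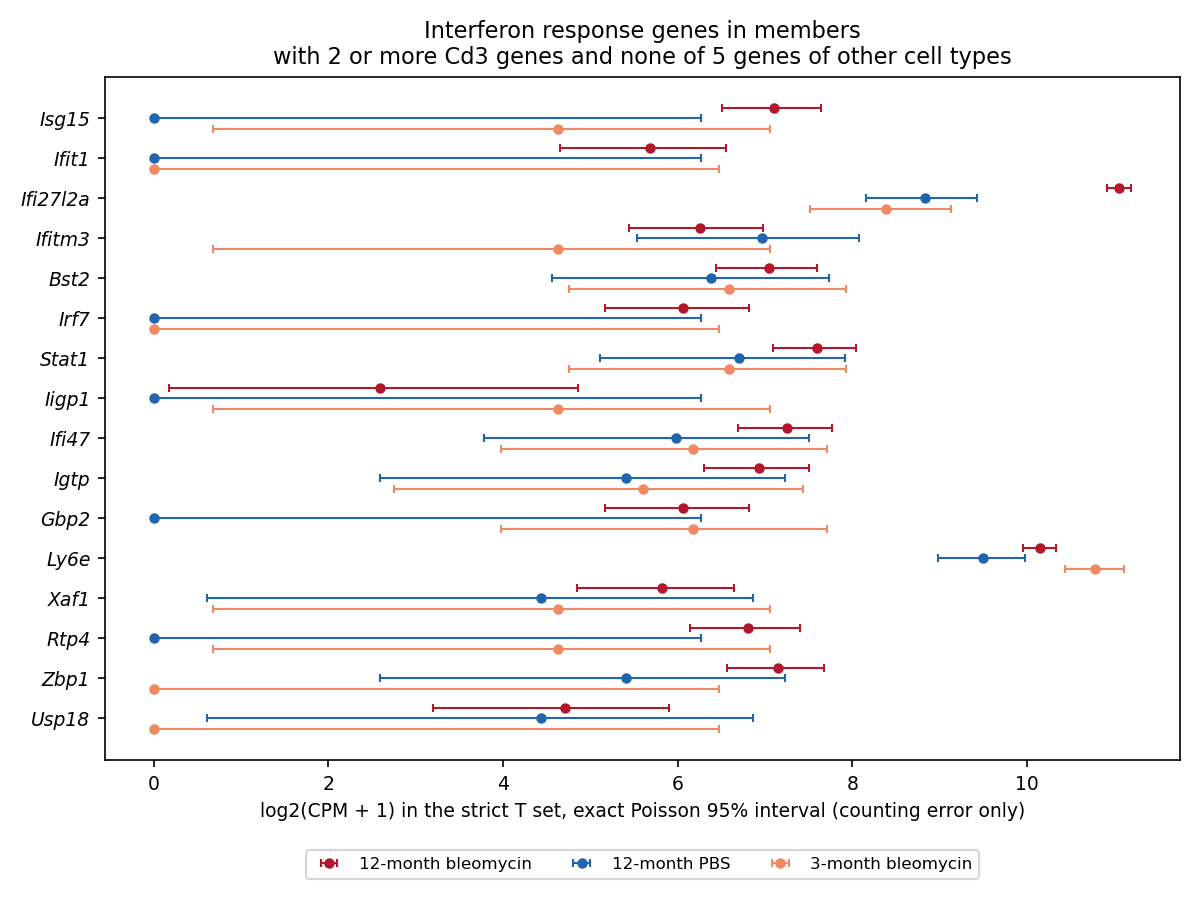
Levels of 16 interferon response genes, as log2(CPM + 1), in the strict T set of 12-month bleomycin (37 cells), 12-month PBS (11) and 3-month bleomycin (15), with exact 95% Poisson intervals (counting error only). The interval of Ifi27l2a in 12-month bleomycin (1925 to 2336 CPM) lay above both others.

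Regulatory and killer genes were compared in the strict T set as well. Of 5 regulatory genes compared with 12-month PBS, 3 were at least 2-fold higher and 0 lower (median 2.45), beside 10.5% and 8.72% of all genes. Against 3-month bleomycin, 4 of 5 were higher and 0 lower (median 1.06), beside 13.5% and 6.68% of all genes. Tnfrsf18, Ctla4 and Ikzf2 had only 3 UMIs each in 3-month bleomycin. Tnfrsf4 was at 600, 62.0 and 190 CPM in 12-month bleomycin, 12-month PBS and 3-month bleomycin, and Tnfrsf18, the gene of the related receptor GITR, at 454, 62.0 and 71.3 CPM. The Tnfrsf4 levels rested on 119 UMIs in 12 cells, 3 UMIs in 1 cell and 8 UMIs in 1 cell. Gzma was at 30.3, 2768 and 0 CPM, and Il7r at 50.4, 103 and 546 CPM. In 12-month PBS the Gzma level of this set rested on 3 cells, and 1 of them held 102 of the 134 UMIs. The directions of Gzma and Tnfrsf4 against 12-month PBS and of Il7r against 3-month bleomycin were the same as over all members. The set is a part of those same members, and Gzma and Il7r are rule genes, so the shared direction is a description and no separate support. The set still held cells with epithelial transcripts, with Krt18 in 9, 0 and 0 cells and Cldn18 in 6, 0 and 2, and their part in these levels was not tested. Ptprc was found in 19 of 37 (51.4%, 34.4 to 68.1), 6 of 11 (54.5%, 23.4 to 83.3) and 2 of 15 cells (13.3%, 1.66 to 40.5) of this set, so here the intervals overlapped.

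Dividing cells were few. Mki67, the gene of a nuclear protein of cycling cells, was found in 3, 2 and 0 members and Top2a, the topoisomerase of dividing cells, in 6, 1 and 0. Of 11 proliferation genes compared between the bleomycin libraries, 9 were at least 2-fold higher and 1 lower in 12-month members (median log2 ratio 2.76), but 6 had 0 UMIs in 3-month bleomycin, and with these held at 3 UMIs 5 of 11 were higher (median 0.65). Over all genes the shares were 17.8% higher and 11.6% lower, or 11.4% higher with genes at 0 held at 3 UMIs. Against 12-month PBS, 2 of 12 were at least 2-fold higher, near the 17.1% of all genes, and 5 lower, beside 12.3% of all genes. The 5 lower genes rested on few cells of 12-month PBS. The highest cell of each held 66.7% (Birc5), 63.6% (Ccnb2), 100% (Rrm2), 57.9% (Pcna) and 50% (Mcm5) of the UMIs there. Of the 2 higher genes, 1 cell of 12-month bleomycin held 80.8% of the Ube2c and 54.2% of the Cdk1 UMIs.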

How the data were processed

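The deposited files hold UMI counts per gene and cell barcode (27998 genes). Per the submitters' processing notes, Cell Ranger, whose version is not given in the sources used here, build mm10 and Seurat 3.2.2 were used. The counts are the authors' own, with no normalization found. Library totals were 36960380 (12-month bleomycin), 14214212 (12-month PBS), 23379893 (3-month bleomycin) and 11381566 UMIs (3-month PBS). Members and the 32 gene lists were chosen with earlier results of these data known. Counts were summed over members and scaled to the members' total UMIs (CPM). Ratios used a prior of 0.5 counts and genes with 20 or more UMIs over both sums, with exact conditional binomial intervals. Shares have exact Clopper-Pearson intervals, levels exact Poisson ones, all at 95%. For fold limits, a 0 count was taken to allow up to 3 counts. UMIs are molecules, yet intervals cover counting error only.

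The plan asked for 20 members in each compared library. No pair had that, so after the numbers were seen 15 was used for the 2 comparisons shown, and the other 2, which need 3-month PBS, were not made. Named genes were the rule genes, up to 6 per list by UMIs, the 20 highest ratios to AT2-kind cells, and the 10 highest and 10 lowest per comparison at 100 CPM or more with an interval that leaves out 0. These left out mitochondrial, ribosomal protein, sex-linked, immunoglobulin, predicted and AT2 genes. Other list genes that the text names were chosen after their values were seen. Scrublet ran in scanpy 1.11.5 (0.8% per 1000 barcodes), and called doublets were kept. Ratios were tested on simulated gene sums with counting error alone. The simulation held no cells, so it does not bear on genes with most UMIs in 1 cell.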

Additional observations from a re-analysis of the deposited data

How the results depend on the processing

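Of 83 values recomputed under other settings, 54 moved by less than their counting interval or stayed within 1.5 times. Of these, 7 were the share of members in 3-month PBS, which was 0 throughout. Settings that only remove cells could not move that share. Member shares moved to 0.219% (12-month PBS), 1.04% (12-month bleomycin) and 0.152% (3-month bleomycin) with Sftpc below 1%. In 12-month bleomycin the share was 1.77% with 3 rule genes, 1.2% without cells that had any of 8 genes of other types, and 1.24% in the strict T set. Under these settings, in the same order, 12-month PBS had 0.51%, 0.546% and 0.401%, and 3-month bleomycin 0.572%, 0.61% and 0.572%. The Cd3 share of its members was 100% with 3 rule genes, 96.8% with Sftpc below 1% and 78.1% when thinned to 3250 UMIs, over the 57 of 69 members that reach this depth.

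Genes at least 2-fold higher over 12-month PBS numbered 335 with 3 rule genes, 179 with the 8 genes barred, 174 in the strict T set, 229 at 50 UMIs and 1613 with no minimum, against 579. Genes at least 2-fold lower numbered 261, 135, 144, 123 and 4224 in the same order, against 416. Over 3-month bleomycin the counts were 383, 205, 216, 232 and 1360 higher, against 586, and 249, 104, 107, 80 and 4443 lower, against 383. Fewer cells and fewer genes compared are part of how these settings were built. Sftpc below 1% left under 10 members in a library, so its gene comparisons were not run. No paired analysis was possible because each group is 1 library, and no replicate could be left out. Depth limits the 16 and 17 members of 12-month PBS and 3-month bleomycin most: 1 UMI there is 13.9 and 18.0 CPM, against 2.07 CPM in 12-month bleomycin.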
